A study of Mus musculus with 4 samples.

Results

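The Schlafen family was followed in total RNA of mouse splenic T cells through its 7 listed genes, Slfn1, Slfn2, Slfn3, Slfn4, Slfn5, Slfn8 and Slfn9. They were matched by gene symbol among the 55536 annotated mouse genes of the deposited tables, and all 7 were found. The cells came from the spleen of virgin male B6CASTF1/J mice of 66 days, F1 hybrids whose mother was C57BL/6 and whose father was CAST Eij, and the labels describe them by the antigen CD3. The 4 biological replicates form a single group, are numbered as libraries 1 to 4, and started from 300 ng of RNA each. No allele was altered and no treatment is labelled, so levels of the genes within a library and differences between the 4 libraries are what the design holds. The labels give all 4 samples 1 donor identifier and do not say whether each is a separate animal, so SDs and p-values measure the spread between these samples, which may be technical. In bulk RNA, fewer cells of a type and less RNA per cell cannot be told apart.

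Schlafen proteins are found in mammals as a family of related genes in a cluster. All share an amino-terminal Schlafen core, and the long members add a carboxy-terminal part that resembles a helicase. Several family members in human and rodents bind or cut transfer RNA, and many Schlafen genes are switched on by type I interferon. In mouse T cells Slfn2 is known for keeping naive cells quiescent, and Slfn1 was first described as a gene whose forced expression stops thymocyte growth.

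The T cell identity of the samples was checked with lists of marker genes. All 10 T cell markers exceeded 10 TPM (the length-normalised abundance of a gene's transcripts), and their summed level was 2098 to 2207 TPM over the libraries. Total estimated counts were between 14540725 and 17280908. Markers of other cells had lower summed levels, though in library 4 the globin genes Hba-a1 and Hbb-bs reached 246 and 195 TPM, above T cell markers such as Cd2 at 178 TPM. No marker of the 8 lists lacked counts in all libraries. B cell markers summed to 153 TPM in library 4 and to between 14.3 and 19.9 in the others, erythroid markers to 634 TPM in library 4 and to between 16.1 and 62.7 in the others, and neutrophil markers to 35.3 TPM in library 2 and to between 8.55 and 12.5 in the others. The edgeR test of variation between libraries, described further on, called 1.4% of 13118 genes. It called all 7 tested of 10 B cell markers, all 3 tested of 8 erythroid markers and all 3 tested of 10 neutrophil markers. Of the tested markers it called 0 of 10 T cell, 0 of 5 natural killer and 0 of 9 monocyte and macrophage markers. For dendritic and platelet markers it called 0 of 3 and 0 of 1. Natural killer, monocyte and macrophage, dendritic and platelet markers summed to between 20.9 and 28.8, 32.1 and 37.6, 2.22 and 5.72, and 5.94 and 8.53 TPM.

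The 7 genes lie in 1 cluster on chromosome 11. In mm10 the cluster, counted with its antisense gene and with Slfn14, runs from 82942341 to 83286726, a span of 344386 bases. On the forward strand stand Slfn5 (82951349 to 82964840), Slfn2 (83065112 to 83070678), Slfn1 (83116849 to 83122670), Slfn4 (83175186 to 83190216) and Slfn3 (83191330 to 83215154). The reverse strand holds Slfn9 (82978390 to 82991830), Slfn8 (83002158 to 83020810), the transcribed pseudogene Slfn10-ps and Slfn14. Their Ensembl identifiers are ENSMUSG00000078763 (Slfn1), ENSMUSG00000072620 (Slfn2), ENSMUSG00000018986 (Slfn3), ENSMUSG00000000204 (Slfn4), ENSMUSG00000054404 (Slfn5), ENSMUSG00000035208 (Slfn8) and ENSMUSG00000069793 (Slfn9). Slfn4 and Slfn3 are 1113 bases apart, and Slfn9 and Slfn8 10327 bases apart.

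**Figure D1:**
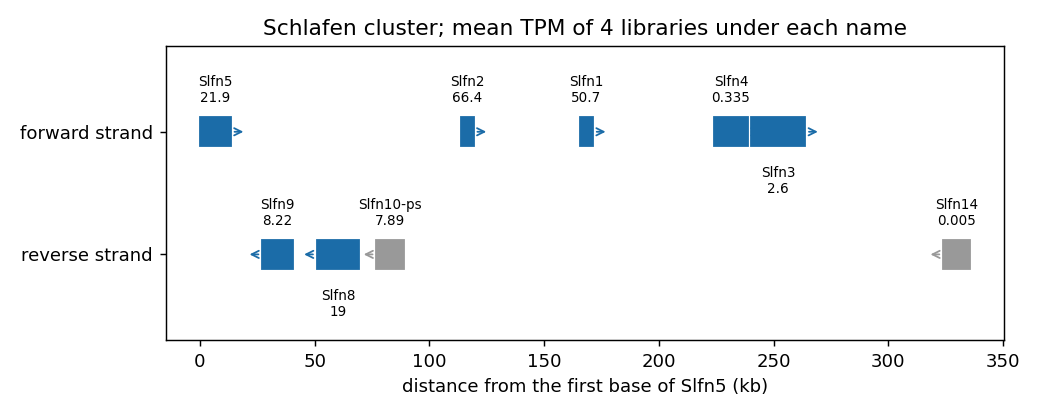
Position of the Schlafen genes of chromosome 11 by strand, as distance in kb from the first base of Slfn5; blue boxes are the 7 family members, grey boxes the other Schlafen loci, arrows the direction of transcription, and the number with each name the mean TPM of 4 libraries. Slfn2 and Slfn1, the highest members at 66.4 and 50.7 TPM, are also the shortest boxes.

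The members fell into the known short, intermediate and long forms by coding length. The short form was represented by Slfn1 with 337 codons and Slfn2 with 378. Intermediate members were Slfn4 with 602 codons and Slfn3, whose transcripts encode 517 or 640. Among the long members Slfn5 has 884 codons, and Slfn8 and Slfn9 have 910 each. The longest complete coding sequences of the genes were aligned globally, and identity was taken over all positions of the alignment, gaps included. Slfn8 and Slfn9 shared 92.7% and Slfn3 and Slfn4 85.3%. The next pair was Slfn1 and Slfn2 with 63.1%, and the other 18 pairs shared at most 58.7%. Gaps count as unlike positions, so the value of a pair of unequal length is held low by the length difference alone.

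Promoter windows, 250 bases before and 50 after a RefSeq transcription start in GRCm38.p6, were searched on both strands for sequence motifs, and all 7 members had a window. The core of the interferon-stimulated response element, GAAA followed by any 2 bases and GAAA, to which interferon-activated factors bind, was found in 3 of 7 members, namely Slfn5, Slfn8 and Slfn9. It was present in 3.99% of 27025 genes with a window and in 8 of the 15 interferon-induced genes that had a window. A gamma-activated site core, TTCNNNGAA, was found in 0 of 7 members and in 9.55% of all genes. The other 4 members, Slfn1, Slfn2, Slfn3 and Slfn4, shared the 9 bases CCAGGAAGT, of the type bound by ETS factors, which were found in 0.999% of all genes and in 0 of the 15 interferon-induced genes. That sequence was chosen after the windows had been read, so its share among the members is a description. In all 4 it lies on the strand opposite to the gene, and read along the gene's strand it begins 55 bases before the RefSeq start in Slfn2, 74 in Slfn1, 73 in Slfn4 and 42 in Slfn3. A match is a string of letters and does not show that a factor binds there.

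The windows of the highest pair and of the near-identical pair are shown whole, because they hold the 2 motifs, with the match in capitals (the ETS-type bases read ACTTCCTGG on the gene's strand, the response element TTTCGTTTTC).
Slfn2, chr11:83064862-83065161, forward strand: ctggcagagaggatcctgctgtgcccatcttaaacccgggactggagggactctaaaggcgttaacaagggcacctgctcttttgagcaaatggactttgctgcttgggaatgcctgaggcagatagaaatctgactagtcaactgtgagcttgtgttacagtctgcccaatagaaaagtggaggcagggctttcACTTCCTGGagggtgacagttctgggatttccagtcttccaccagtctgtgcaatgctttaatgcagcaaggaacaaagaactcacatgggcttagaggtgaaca
Slfn1, chr11:83116570-83116869, forward strand: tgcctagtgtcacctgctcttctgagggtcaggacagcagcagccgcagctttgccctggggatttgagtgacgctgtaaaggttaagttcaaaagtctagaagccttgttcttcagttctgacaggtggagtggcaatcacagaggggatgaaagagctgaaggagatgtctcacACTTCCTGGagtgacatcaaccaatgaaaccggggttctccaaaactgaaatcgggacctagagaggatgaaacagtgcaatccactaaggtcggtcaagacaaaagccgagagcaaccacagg
Slfn8, chr11:83020761-83021060, reverse strand: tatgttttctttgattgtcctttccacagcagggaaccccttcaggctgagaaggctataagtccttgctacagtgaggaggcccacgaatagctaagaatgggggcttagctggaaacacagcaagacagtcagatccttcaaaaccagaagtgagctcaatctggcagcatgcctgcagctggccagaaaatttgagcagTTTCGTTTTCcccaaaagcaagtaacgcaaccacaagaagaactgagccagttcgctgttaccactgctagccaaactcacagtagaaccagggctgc
Slfn9, chr11:82991781-82992080, reverse strand: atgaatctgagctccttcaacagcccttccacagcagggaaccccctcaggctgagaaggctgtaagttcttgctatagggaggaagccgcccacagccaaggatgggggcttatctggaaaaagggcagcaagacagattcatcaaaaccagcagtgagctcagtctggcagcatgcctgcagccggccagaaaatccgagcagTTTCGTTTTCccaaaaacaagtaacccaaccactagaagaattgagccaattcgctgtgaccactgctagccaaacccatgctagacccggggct
For the other members 60 bases around the match are shown, with the ETS-type bases of Slfn4 and Slfn3 and the response element of Slfn5 in capitals.
Slfn4, chr11:83175088-83175147, forward strand: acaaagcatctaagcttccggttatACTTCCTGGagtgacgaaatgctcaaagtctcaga
Slfn3, chr11:83191263-83191322, forward strand: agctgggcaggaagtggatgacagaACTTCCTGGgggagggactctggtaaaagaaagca
Slfn5, chr11:82951922-82951981, forward strand: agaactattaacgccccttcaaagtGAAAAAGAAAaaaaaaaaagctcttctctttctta
The windows of Slfn8 and Slfn9 shared 80.5% of the positions of their alignment, gaps included, and carry the response element 48 and 45 bases before the start. An overlapping window of Slfn8, from a start further along the gene, holds the same bases 136 before that start. In Slfn5 the response element begins 155 bases before the RefSeq start. The Slfn5 window begins at 82951852, after the first annotated base of the gene at 82951349, so this match lies within the annotated gene. No other pair of windows shared more than 49.4%.

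The short members dominated the family in TPM. Slfn2 had 64.4, 66.1, 67.8 and 67.5 TPM in libraries 1 to 4 and Slfn1 had 53.3, 55.2, 45.2 and 49.0 TPM. Slfn2 was nearly level across the libraries, whereas Slfn1 stood higher in libraries 1 and 2 than in libraries 3 and 4. Their means were 66.4 ± 1.54 and 50.7 ± 4.45 TPM (SD, n = 4). Together they held 69.2% ± 0.656 of the 169 ± 5.11 TPM of the family. Slfn2 ranked 816th and Slfn1 1183rd by mean TPM among 21951 protein-coding genes. Because TPM divides by length, the short members held less of the reads, 26.4% ± 1.63 of the counts of the family for Slfn2 and 22.7% ± 1.29 for Slfn1.

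Long members came next. Slfn5, described as a regulator of interferon-induced transcription in human cells, had 22.4, 23.5, 19.86 and 21.96 TPM, with a mean of 21.9 ± 1.54 (SD, n = 4). Slfn8, a long member whose human relatives cut transfer RNA, had 18.9, 18.8, 18.6 and 19.85 TPM, with a mean of 19.0 ± 0.573. Slfn9, its near-identical neighbour, had 8.33, 7.87, 7.56 and 9.14 TPM, with a mean of 8.22 ± 0.687. The lowest Slfn5 value, 19.86 in library 3, lay just above the highest Slfn8 value, 19.85 in library 4, so these ranges met without overlapping, and Slfn9 lay below both. By reads Slfn5, at 1578 ± 194 counts, stood close to Slfn2, at 1697 ± 126 counts, and above Slfn1, at 1464 ± 208 counts. The main Slfn5 transcript has 5979 bases and that of Slfn2 1664. In a second quantification of the same libraries, described further on, Slfn5 had the most counts of the family, at 1840 ± 199. There Slfn2 had 1488 ± 99.5 and Slfn1 1413 ± 189.

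The intermediate members were low. Slfn3, studied in T cells and in intestinal epithelium, had 2.33, 2.44, 2.84 and 2.78 TPM, with a mean of 2.60 ± 0.251 TPM from 71.7 to 87.9 counts. Slfn4, which is known mainly from macrophages and other myeloid cells, had 0.23, 0.41, 0.29 and 0.41 TPM, with a mean of 0.335 ± 0.0900 TPM from 14.6 to 26.0 counts. Slfn4 was the only member under 1 TPM, and it exceeded the floor of 3 counts in every library. In the first quantification Slfn4 stood highest in libraries 2 and 4, on these few counts. The second quantification gave Slfn4 0.358, 0.467, 0.502 and 0.595 TPM in libraries 1 to 4. There library 3 exceeded library 2. The monocyte and macrophage markers summed to 35, 37.6, 32.1 and 37.3 TPM in libraries 1 to 4, highest in libraries 2 and 4, where 7 of the 9 tested markers lay above their own mean, against 4 in library 1 and 1 in library 3. Of all 13118 tested genes, 6624, 6564, 6629 and 6697 lay above their own mean in libraries 1 to 4. Library 2 also had the highest neutrophil marker sum and library 4 the highest B cell and erythroid sums. The part of these cells in the Slfn4 level was not tested.

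**Figure D2:**
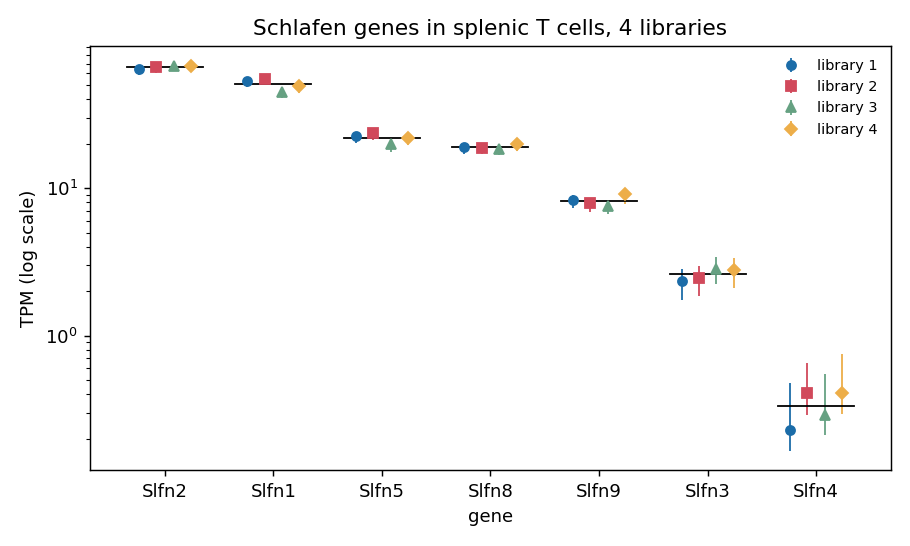
TPM of the 7 Schlafen genes on a log axis, with a point for each of the 4 libraries, the mean as a horizontal bar, and vertical lines for the credibility interval deposited with each value. The genes run from Slfn2 at 66.4 TPM to Slfn4 at 0.335 TPM, and no neighbouring pair has overlapping points. Intervals of Slfn5 and Slfn8 overlap.

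Each member exceeded the next in the order Slfn2, Slfn1, Slfn5, Slfn8, Slfn9, Slfn3 and Slfn4 in 4 of 4 libraries. That order was set by the mean TPM of these same 4 libraries, so the agreement is a description. On the log2(TPM + 0.1) scale Slfn2 exceeded Slfn1 by 0.39 ± 0.155 and Slfn1 exceeded Slfn5 by 1.20 ± 0.0407 (SD, n = 4). In the first quantification the smallest step was that of Slfn5 over Slfn8, at 0.20 ± 0.103, with 0.25, 0.33, 0.10 and 0.14 in libraries 1 to 4. Slfn8 exceeded Slfn9 by 1.20 ± 0.0772, Slfn9 exceeded Slfn3 by 1.63 ± 0.175, and Slfn3 exceeded Slfn4 by 2.65 ± 0.293, the largest step. In the second quantification of the same libraries the smallest step was that of Slfn2 over Slfn1, at 0.28, and Slfn5 over Slfn8 was 0.50. In two-sided exact permutation tests that flip the sign of each library's difference, every pair had p = 0.13, before and after Benjamini-Hochberg adjustment over the 6 pairs. That is 2 of the 16 sign patterns of 4 libraries and the least possible value, so no pair could pass 0.05.

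No member was called as varying between libraries. edgeR's goodness-of-fit test compares the spread of a gene over the 4 libraries with that of genes of like abundance. It called 1.4% of 13118 genes at an adjusted p below 0.05 and 0 of the 7 members, all of which passed the filter on low counts. At an unadjusted p below 0.05 it would have called 603 of the 13118 genes. Slfn5 and Slfn1 were among them, and their adjusted p was 0.815 and 1 with edgeR. Under every alternative run the edgeR test called 0 members, against 0.873% to 1.37% of all tested genes. Which members fell below an unadjusted 0.05 depended on the setting. With the filter omitted or with DESeq2's size factors there were 2, and in the second quantification there was 1, Slfn9, with Slfn1 and Slfn5 above 0.05. There were 0 without library 1 or without library 3. Over all tested genes, 1284 of 23727 fell below an unadjusted 0.05 with the filter omitted and 597 of 13118 with DESeq2's size factors. In the second quantification 701 of 15583 did.

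The members differed in how even they were. Spans were taken on a log2 CPM scale (counts scaled to the library total after TMM adjustment, with a prior count of 2). Slfn2 spanned 0.05 between its highest and lowest library, a range that 1.68% of tested genes, taken at any abundance, undercut. Slfn8 spanned 0.14, Slfn3 0.22, Slfn9 0.27, Slfn1 0.32, Slfn5 0.38 and Slfn4, with its few counts, 0.59. The median span was 0.27 both for the 7 members and for all tested genes. Slfn5 was highest in library 1, at 112 CPM, with 99.5, 88.0 and 95.0 CPM in libraries 2 to 4, where CPM is scaled to the total count without the TMM adjustment. On that unadjusted scale Slfn1 had 97.8, 99.6, 81.2 and 86.9 CPM.

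Interferon-induced genes were set beside the members. Of 20 listed genes, 16 lay above their own mean in library 1, 17 in library 2, 3 in library 3 and 6 in library 4, and the mean deviation was 0.16, 0.13, -0.23 and -0.065 on the log2 CPM scale. Of all 13118 tested genes, 6624, 6564, 6629 and 6697 lay above their own mean in libraries 1 to 4. Slfn1 deviated by 0.13, 0.15, -0.17 and -0.10 and Slfn5 by 0.21, 0.034, -0.17 and -0.083. Slfn2 deviated by 0.0065, 0.012, 0.015 and -0.034. Of the 3 members that carry the response element letters, Slfn5 had the signs of the list mean in each library, and Slfn8 stayed within 0.090 of its mean. Slfn9, the remaining carrier, was highest in library 1, at 0.17, and lowest in library 2, at -0.11, with -0.098 in library 3. In TPM Slfn9 was lowest in library 3 in both quantifications, at 7.56 in the first and 9.24 in the second. Means of the interferon receptor and signalling list and of the transfer RNA list, both described below, had the same signs as the interferon-induced mean. They were 0.0036, 0.039, -0.0086 and -0.034, and 0.064, 0.050, -0.045 and -0.069. The T cell quiescence mean had the opposite sign in each library, at -0.0062, -0.017, 0.016 and 0.0079. With 4 libraries no correlation was computed, and whether the members vary together with any of these lists was not tested.

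**Figure D3:**
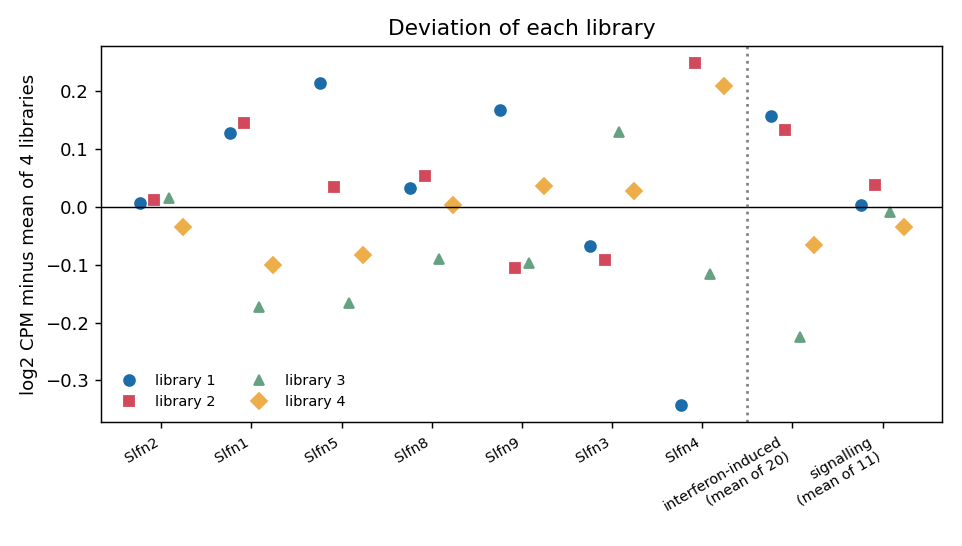
Deviation of each library from the mean of 4 libraries in log2 CPM, for the 7 Schlafen genes left of the dotted line and for the means of 20 interferon-induced genes and 11 interferon receptor and signalling genes right of it. Slfn1, Slfn5 and the interferon-induced mean are above 0 in libraries 1 and 2 and below 0 in libraries 3 and 4. The signalling mean has the same signs but stays within 0.039 of 0, and the points of Slfn2 lie close to 0.

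No test of the interferon-induced list as a whole was run. The edgeR test, run gene by gene, called 0 of its 20 members, against 1.4% of all genes. Mx1 (an antiviral GTPase), Mx2 and Xaf1 fell below an unadjusted p of 0.05, as did 603 of all 13118 tested genes. The median span of the list was 0.46 against 0.27 for all tested genes. Its highest members were Zbp1, a sensor of nucleic acids in the Z form, at 29.7 ± 2.00 TPM, Trim30a at 23.8 ± 1.81 and Ifi35 at 23.1 ± 2.46 TPM (SD, n = 4), all below the mean level of Slfn1. Interferon receptors and signalling genes were called in 0 of 11 cases, with 0 below an unadjusted 0.05, and their median span was 0.14. Among them the kinase Jak1 had 171 ± 6.08 TPM and the factor Irf1 160 ± 11.6 TPM. The spans of these lists and of those described next were not matched for abundance. Genes of lower abundance vary more: the coefficient of variation fitted by abundance was 0.095 for Mx1 and 0.0622 for Jak1.

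Genes of the processes in which Schlafen proteins act were described in the same way. Of 10 T cell quiescence genes the edgeR test called 0, against 1.4% of all genes, with 0 below an unadjusted 0.05 and a median span of 0.16 on the log2 CPM scale. All 10 exceeded 10 TPM, led by the antiproliferative gene Btg1 at 451 ± 14.8, the factor Klf2 at 343 ± 15.04 and Foxp1 at 232 ± 29.2 TPM, all above Slfn2 in level. Of 8 genes that cut, modify or protect transfer RNA or degrade RNA, 7 passed the filter, and the edgeR test called 0, against 1.4% of all genes, with 0 below an unadjusted 0.05. Their median span of 0.23 was near the 0.27 of all tested genes, with mean deviations of 0.064, 0.050, -0.045 and -0.069 in libraries 1 to 4 and 7, 5, 2 and 1 of the 7 genes above their own mean. The counts over all 13118 tested genes were 6624, 6564, 6629 and 6697. Trmt1 and Nsun2, which methylate transfer RNA, had 59.4 ± 5.44 and 41.3 ± 3.76 TPM, and Rnh1, the cytosolic ribonuclease inhibitor, 13.5 ± 1.73 TPM.

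Other Schlafen loci were measured for comparison. Slfn10-ps, annotated as a transcribed pseudogene next to Slfn8, had 7.87, 7.51, 8.04 and 8.14 TPM, a mean of 7.89 ± 0.277 from 419 to 468 counts (SD, n = 4). That level was below each library's Slfn9 in libraries 1, 2 and 4 and above it in library 3. Slfnl1, a Schlafen-like gene on chromosome 4, had 0.59, 0.10, 0.47 and 0.45 TPM from 3 to 16 counts. Slfn14, known from platelet and erythroid biology in human, had 1 count in library 3 and 0 in the others, where 3 counts would correspond to between 0.174 and 0.206 CPM. Slfn5os, annotated antisense to Slfn5, had 2 counts in library 4 and 0 in the others. These floors cover counting error only.

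Reads of close paralogs can be shared between genes, so the annotated transcripts were compared. Of the 31-base stretches of Slfn8, 26.8% also occurred in another gene, of Slfn9 23.6% and of Slfn10-ps 32.4%, mostly in each other. The share was 30.04% for Slfn3 and 20.1% for Slfn4, against 10.3% for Slfn2, 4.92% for Slfn5 and 1.96% for Slfn1. For stretches of 100 bases no member exceeded 3.71%, the value of Slfn9, and Slfn1 had 0%. The deposited posterior SD of the count, which reflects reads that could be assigned to more than 1 gene, was 0 for Slfn1 and Slfn2 and at most 0.762% of the count for Slfn9, 0.397% for Slfn8, 1.87% for Slfn3 and 5.09% for Slfn4. These SDs cover assignment within the first quantification only, and the levels of Slfn8, Slfn9, Slfn3 and Slfn4 are uncertain by more than that, since the second quantification described next gives Slfn3, Slfn9 and Slfn4 mean counts of 165%, 142% and 133% of the first. The reference is that of C57BL/6, and how reads of the CAST Eij alleles were assigned was not tested.

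A second deposited quantification of the same libraries kept the order of the 7 genes by mean TPM. It gave Slfn9 12.5, 10.2, 9.24 and 11.9 TPM, against 8.33, 7.87, 7.56 and 9.14 in the first, higher in 4 of 4 libraries. Mean TPM in the second was 67.7 ± 2.56 for Slfn2, 56.1 ± 5.27 for Slfn1, 24.98 ± 1.95 for Slfn5, 17.6 ± 1.14 for Slfn8, 10.97 ± 1.501 for Slfn9, 3.72 ± 0.279 for Slfn3 and 0.481 ± 0.0979 for Slfn4 (SD, n = 4). The log2 difference, second minus first, was 0.40 ± 0.1245 for Slfn9, 0.50 ± 0.0963 for Slfn3 and 0.42 ± 0.198 for Slfn4, and -0.11 ± 0.0657 for Slfn8. It was 0.19 ± 0.0287 for Slfn5, 0.15 ± 0.0313 for Slfn1 and 0.028 ± 0.0427 for Slfn2. The same exact permutation test gave an adjusted p of 0.375 for Slfn2 and of 0.146 for each of the other 6, whose unadjusted p was the least that 4 libraries allow.

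These differences are to be read against a shift of the whole scale. Over 10115 protein-coding genes with at least 1 TPM in both, the median log2 difference was 0.39, and protein-coding genes held 46.5% to 50.8% of TPM in the second quantification and 34.4% to 35.9% in the first. Relative to that median Slfn8 lay at -0.50, Slfn2 at -0.36, Slfn1 at -0.24 and Slfn5 at -0.20, while Slfn9 lay at 0.015 and Slfn3 at 0.11. In estimated counts, Slfn9 averaged 942 ± 105 in the second and 662 ± 40.7 in the first, Slfn3 128 ± 10.4 and 77.8 ± 7.17, and Slfn2 1488 ± 99.5 and 1697 ± 126 (SD, n = 4). The mean count of the second was 142% of the first for Slfn9, 165% for Slfn3, 104% for Slfn8 and 87.7% for Slfn2. Total counts of the second were 107.5% to 109.4% of the first.

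**Figure D4:**
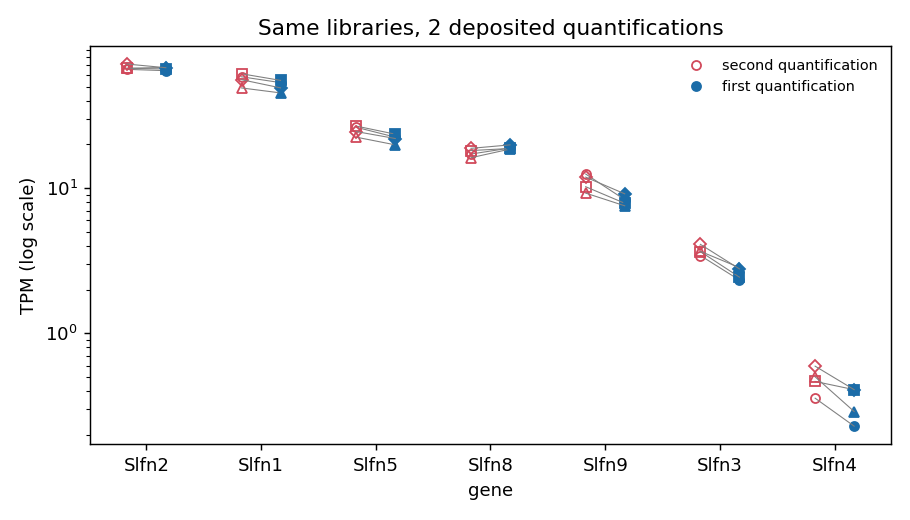
TPM of each Schlafen gene in the second (open red symbols, left) and first (filled blue symbols, right) quantification on a log axis, with a line joining the values of each library and the same symbol shapes for libraries 1 to 4 as circles, squares, triangles and diamonds. Slfn9, Slfn3 and Slfn4 are higher in the second in every library, Slfn8 is lower in every library, and the order of the genes by mean is the same.

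Slfn1 and Slfn2 have 1 annotated transcript each, and transcript shares were examined for the other 5 members. Slfn5-201, the longest Slfn5 transcript, held 69.5% ± 4.30 of the TPM of its gene in the second quantification and 58.7% ± 5.41 in the first, and Slfn5-202, which encodes the same 884 codons, held 22.1% ± 2.59 and 26.9% ± 4.61 (SD, n = 4). Slfn5-203, with 378 codons, held 8.07% ± 5.28 and 14.5% ± 7.89, and in the first it varied between 3.92% in library 1 and 22.3% in library 2. The transcripts encoding 884 codons led Slfn5 in both.

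For Slfn8 and Slfn9 the quantifications placed the reads on different transcripts. Slfn8-201, which encodes 910 codons, held 74.2% ± 8.54 of Slfn8 in the second and 38.8% ± 6.10 in the first. Slfn8-204, a transcript annotated without the end of its coding sequence, held 0.133% ± 0.266 in the second and 32.1% ± 2.29 in the first. Slfn8-203, with 407 codons, held 11.1% ± 9.95 and 28.7% ± 3.60. In Slfn9, transcript Slfn9-201 led with 97.3% ± 1.85 in the second and 80.1% ± 7.42 in the first, and Slfn9-203 held 0.333% ± 0.666 and 19.9% ± 7.42. Slfn8-204 and Slfn9-203 are 2128 bases long each and shared 93.8% of the positions of their alignment, gaps included. Only 3.77% of the 31-base stretches of either occurred in no other transcript of its own gene.

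In the intermediate members the leading transcript depended on the quantification or the library. Slfn3-201, with 517 codons, held 37.9%, 39.4%, 29.0% and 23.2% of Slfn3 in libraries 1 to 4 in the second quantification and 84.2%, 91.7%, 31.04% and 90.6% in the first. Slfn3-203, annotated without a coding sequence, led in all 4 libraries of the second with 62.4% ± 13.4 and held 9.49% ± 4.75 in the first. Slfn3-202, with 640 codons, held 10.8%, 9.82%, 0% and 0% of Slfn3 in libraries 1 to 4 in the second quantification and 0%, 0%, 64.6% and 0% in the first, so its lead in library 3 was not seen in the second. Slfn4-201 and Slfn4-202, which both encode 602 codons, exchanged places in library 2, where Slfn4-202 held 100% in both quantifications. In library 4 of the second quantification they held 50.7% (Slfn4-202) and 49.2% (Slfn4-201). Slfn4 shares rest on at most 31.015 counts in a library.

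**Figure D5:**
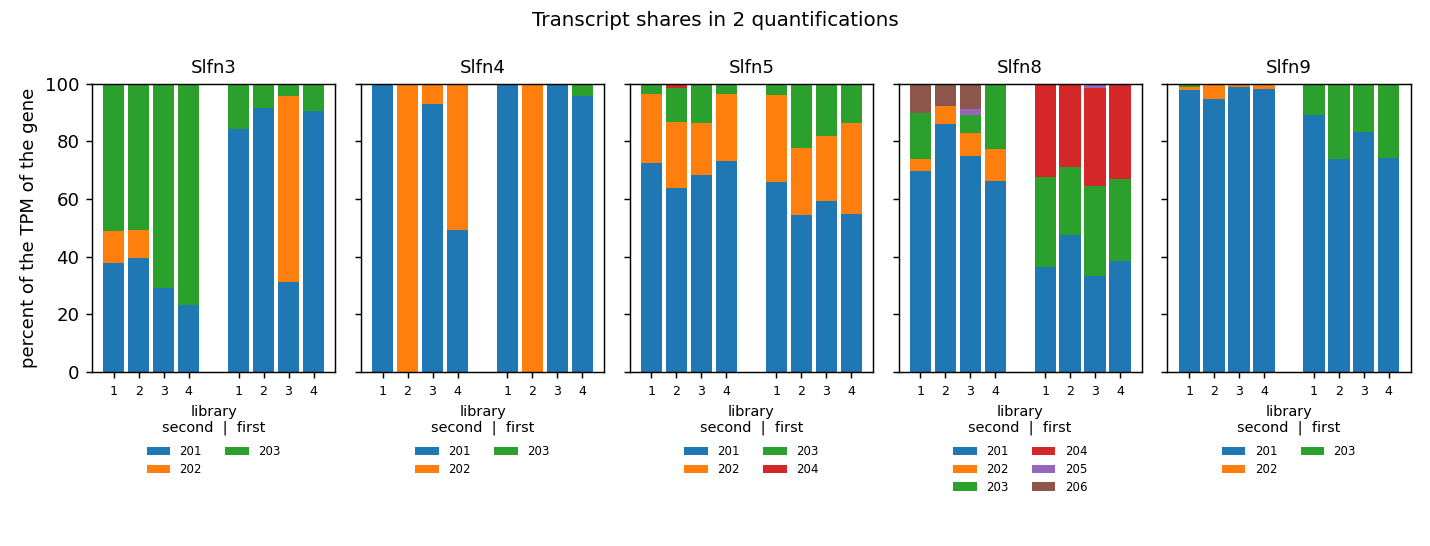
Percent of the TPM of a gene held by each annotated transcript (numbered 201 to 206 as in the annotation) for the 5 members with several transcripts; in each panel the left 4 bars are libraries 1 to 4 in the second quantification and the right 4 bars the same libraries in the first. Slfn5-201 leads in all 8 bars, whereas Slfn8-204 is near 0 on the left and close to 32.1% on the right.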

How the data were processed

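Total RNA of splenic T cells was measured in 4 libraries of 1 group, with a directional kit and spike-ins per the labels. Values refer to mm10 and GENCODE M21 per the text deposited with each library; the names of the aligner and quantifiers were not given in the sources used here. Deposited expected counts (estimated counts, not normalized), TPM values, percent values of a transcript within its gene, and scores (posterior SDs of counts and credibility bounds of TPM) of the first quantification derive from a transcriptome alignment and have RSEM's column layout. The second quantification, with deposited estimated counts and TPM per transcript, has kallisto's layout and was summed per gene. Each library has tables of its own. TPM is relative to all targets, spike-ins included, so a value depends on every other target in its table.

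Spike-ins took 0.299% to 0.346% of counts and numeric identifiers, which name no gene, at most 0.000483%; both stayed out of library sizes. Expected counts were rounded and tested with edgeR 4.0.16 in R 4.3.3 (intercept only, TMM, filterByExpr, trended dispersion, goodness-of-fit, Benjamini-Hochberg at 0.05 over all genes), which was tested on simulated data. The common biological coefficient of variation was 0.0938. No pair of libraries agreed within counting error (chi-square per degree of freedom 4.59 to 11.3). Levels were compared within libraries by exact sign-flip tests with a pseudocount of 0.1. Alternatives were DESeq2 1.42.0 size factors, no filter, the second quantification, a pseudocount of 1, rescaling to protein-coding genes and leaving out each library. Alignments and motif counts used Python 3.11.15. Named genes were all members, other Schlafen loci, the top 3 by TPM of each list described, genes below an unadjusted 0.05 in the interferon list (chosen after seeing values) and the 2 protein-coding genes nearest in level over the libraries to each of the 3 highest members. Some genes that this rule names are not reported here. Members and lists were chosen with earlier results of these data known. Floors and intervals cover counting error only, as reads amplified by PCR and lacking molecular identifiers do not count independent molecules.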

Additional observations from a re-analysis of the deposited data

Results flagged for a closer look

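Values of 1 library that stood far from the other 3 (gap to the nearest library over 0.83 of the range) were found in 17 of 84 sets of 4 values examined. Chance flags about 1 in 20 sets of continuous values, but that rate does not apply here: in 10 of the 17 the other 3 libraries had the same value, mostly 0, which is flagged whatever the size of the difference, and many sets share reads.

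Transcript shares of the intermediate members made up 4 of them. In the first quantification Slfn3-201 held 31.04% of Slfn3 in library 3, against 84.2% to 91.7% in the others, and Slfn3-202 held 64.6% there, against 0%. In the second quantification library 3 did not stand apart in this way, with 29.0% for Slfn3-201, against 23.2% to 39.4%, and 0% for Slfn3-202, against 0% to 10.8%. Slfn4-201 held 0% of Slfn4 in library 2, against 95.7% to 100% in the others, and Slfn4-202 held 100% there, against 0%. The pseudogene Slfn10-ps followed in library 3, where Slfn10-ps-201 held 84.2% and Slfn10-ps-202 15.8%, against 100% and 0% in the others. In the second quantification Slfn8-204 had a share of 0.533% in library 4 and Slfn9-203 of 1.33% in library 1, against 0% elsewhere.

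Gene levels that stood apart belonged to loci outside the 7 members. Slfn10-ps had 10.01 TPM in library 4 of the second quantification, against 8.46 to 8.59. Slfn14 had 0.02 TPM in library 3 of the first and 0.0173 TPM in the second, and Slfn5os 0.29 and 0.487 TPM in library 4, all against 0. The 3 loci Slfn10-ps, Slfn14 and Slfnl1 summed to 7.61 TPM in library 2, against 8.46 to 8.59. Marker sums of B cells and erythroid cells in library 4 (153.2 and 634 TPM) and of neutrophils in library 2 (35.26 TPM) stood apart too.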

How the results depend on the processing

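All 35 alternative counts of called genes, over the Schlafen members and 4 other lists, were 0 as in the reported test. The alternatives called 0.873% to 1.37% of all tested genes, so 0 calls in lists this short is near that share. Without library 4 the unadjusted p was 0.0141 for Slfn1 and 0.00755 for Slfn5 (edgeR, adjusted p = 0.539 and 0.385), and 9 interferon-induced genes fell below an unadjusted 0.05 in place of 3. Without library 3 the edgeR p was 0.189 for Slfn1 and 0.128 for Slfn5, and 0 interferon-induced genes fell below 0.05. Without library 1 there were 0 members and 1 interferon-induced gene, and without library 2 there were 1 and 3. Over all tested genes, 524 of 13379 fell below an unadjusted 0.05 without library 1 and 521 of 13304 without library 2. Without library 3 it was 545 of 13289, without library 4 it was 711 of 13295, and with all libraries 603 of 13118. The 42 alternative differences between members next to each other in level kept their direction, but sizes moved: in the second quantification Slfn5 minus Slfn8 was 0.50 on the log2 scale, against 0.20 in the first, and Slfn8 minus Slfn9 was 0.68, against 1.20. Leaving out each library gave 0.16 to 0.24 and 1.17 to 1.23. With 3 libraries the exact permutation p cannot go below 0.25.

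The difference between the quantifications depended on the scale. With both rescaled to protein-coding genes, second minus first turned to -0.42 for Slfn2, -0.30 for Slfn1, -0.26 for Slfn5 and -0.040 for Slfn9 on the log2 scale. The rescaling removes the difference between the quantifications in the share of TPM held by protein-coding genes. The other 38 of these 42 alternatives kept their direction. Rescaling to protein-coding genes raised the mean TPM of every member, to 187.9 for Slfn2 and 0.945 for Slfn4.

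No paired analysis was possible because there is only 1 group, so no groups share replicate numbers; the exact tests between genes and between quantifications already use differences within a library. Depth limits Slfn4 most: its transcript shares rest on at most 31.015 counts a library, and leaving out each library moved the mean share of Slfn4-201 between 65.2% and 98.6%.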

Other observations

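Genes at the level of the highest members over the 4 libraries were found by the smallest root mean square difference in log2(TPM + 1) among 21942 protein-coding genes outside the family. Nearest to Slfn2 were Ivns1abp (66.1 ± 2.52 TPM, difference 0.0235) and Nsa2 (65.5 ± 0.993 TPM, difference 0.0237). For Slfn1 they were Grb2, an adaptor of receptor signalling (50.2 ± 3.75 TPM, difference 0.0587), and Prmt1, an arginine methyltransferase (52.3 ± 2.995 TPM, difference 0.0615). For Slfn5 they were Wdr36 (21.9 ± 1.27 TPM, difference 0.0280) and Mtch1 (21.8 ± 2.00 TPM, difference 0.0398; SD, n = 4 throughout). The measure follows level more than variation, and many genes lie at these levels.

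Slfn8, Slfn9 and Slfn10-ps, which share the most sequence, were also summed. The sum was 37.4 ± 2.79 TPM in the second quantification and 35.1 ± 1.41 TPM in the first, and 2373 and 2051 counts on average, a mean log2 difference in TPM of 0.090 ± 0.0647 (SD, n = 4).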
